A study of Arabidopsis thaliana with 6 samples.

Results

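Among 13355 Arabidopsis thaliana genes with a probe set of their own, 47 had a low value in mock-treated stems and a higher one after treatment with N-1-naphthylphthalamic acid (NPA). They were chosen by 3 terms on the log2 expression values. The mean of the mock arrays was under 5, the mean of the NPA arrays lay at least 0.7 above it, which is 1.62-fold, and the lowest NPA value was above the highest mock value. Genes whose symbols belong to 13 named groups (GH3, WAG, TBL, GH9, IQD, EXP, UGT, CYP, ABC, MYB, NAC, WRKY and ERF) were left out. AT1G72250 and AT5G45700 were left out by locus name. Both exclusions together removed 2 genes that met the terms. Each gene was represented by the probe set with the highest mean over the 6 arrays. Because these values chose the genes, a difference between NPA and mock in them is a description and not a finding, and no p-value is given for any of the 47.

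The samples were pieces of the stem of wild-type plants of the Col strain, 3 mm long and taken 2.5 cm above the base. Plants had 3 weeks of short days, with 8 h of light and 16 h of dark, before long days with 16 h of light and 8 h of dark. One group of 3 samples received NPA at 10 mg per g for 7 days and the other group of 3 was mock-treated. The groups were taken from the sample titles and the treatment labels, since the protocol text is the same for all 6 samples and names NPA for the mock samples too. What the mock preparation held is not given in the sources used here. Total RNA from each sample was hybridised to 1 Affymetrix array, and the precision of each value is limited by how few arrays there are. The labels do not tell whether replicates were separate plants, so their spread may be technical. A piece of stem holds many cell types, and more cells of a type cannot be told apart from more RNA per cell.

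Auxin is carried down the stem from cell to cell, and NPA blocks this polar transport. Auxin promotes the divisions of the cambium, the layer that adds wood and phloem to a thickening stem, and the study used NPA to start such secondary growth. Dividing plant cells build a cell plate between the daughter nuclei on an array of microtubules and actin filaments, with kinesins as motors and Aurora and mitogen-activated protein kinases among the regulators. Cells that then enlarge and differentiate secrete wall polymers and the enzymes that remodel them.

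The mock means of the 47 genes ran from 3.65 to 4.93 on the log2 scale, with a median of 4.58, and their NPA means ran from 4.37 to 7.14, with a median of 5.49. For orientation, the lower quartile of all probe sets was 4.22 and the median 6.31, as means over the 6 arrays, and 8 of the 47 had a mock mean under that lower quartile. In NPA 38 of the 47 had a mean over 5, but only AT5G22460 had one over the median of the arrays. The NPA minus mock differences ran from 0.71 to 2.54 with a median of 0.82, and 15 were at least 1. Over all 5614 genes with a mock mean under 5 the median difference was -0.015, and over all 13355 genes it was 0.01. Folds from such dim values are not exact, since the distance from background is unknown.

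The groups did not overlap, with NPA higher, in 7.43% of the 5614 dim genes and in 13.1% of all 13355 genes. A difference of at least 0.7 was seen in 0.873% of the dim genes, that is in 49 genes. All 49 already had groups that did not overlap, so the third term removed no gene. In the opposite direction, with an NPA mean under 5, mock at least 0.7 higher and no overlap, 8 of 5578 genes or 0.143% met the terms. After centring the arrays on their medians these counts were 31 and 18. Those medians, over all probe sets, were 6.18, 6.26 and 6.31 on mock arrays 1 to 3. On NPA arrays 1 to 3 they were 6.38, 6.32 and 6.39, so each NPA median lay above each mock median. In the limma fit of all probe sets 2.76% were called higher in NPA at an adjusted p under 0.05, and 31 of the 47 genes were among them. The rule used the same contrast, so nothing is read from that count, which was 16 without mock 2 or mock 3, 17 without NPA 1 or NPA 2, 22 without mock 1 and 25 without NPA 3.

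**Figure D1:**
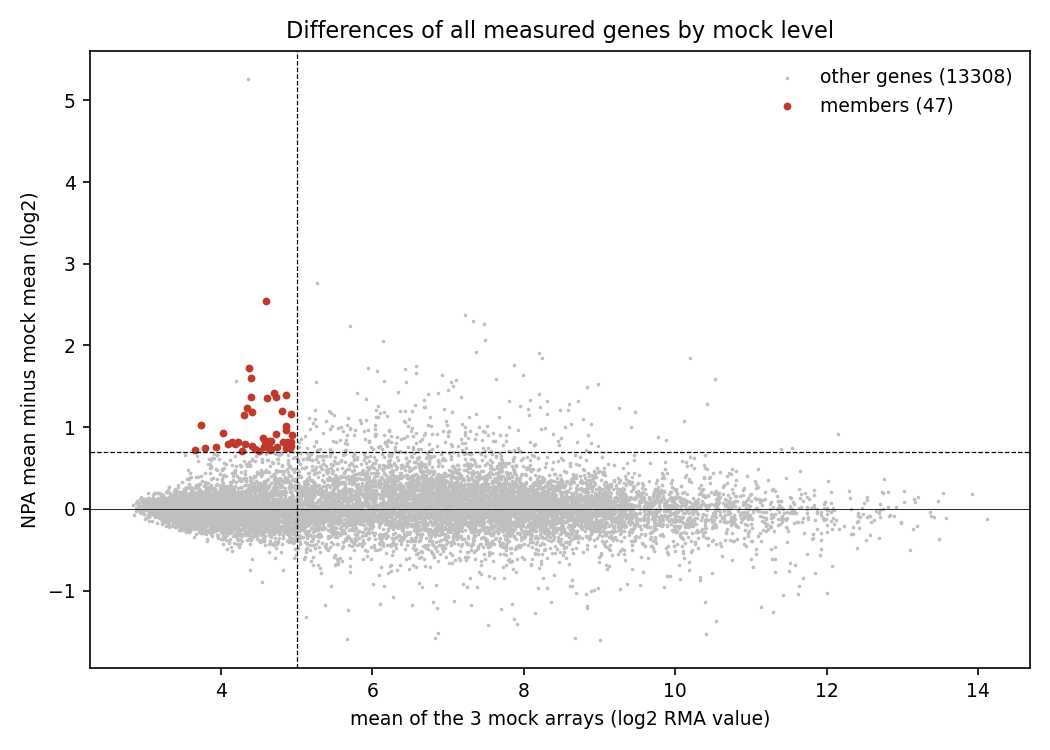
NPA mean minus mock mean (log2) against the mean of the 3 mock arrays (log2 RMA value) for 13355 genes, each a point. The 47 members, in red, lie left of the dashed line at a mock mean of 5 and above the dashed line at a difference of 0.7. The grey point far above them in the same area is one of the 2 genes left out by symbol or locus name.

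AT5G22460, a gene of the alpha/beta-hydrolase superfamily, had the largest difference. Its log2 values were 5.30, 4.48 and 4.01 on mock arrays 1 to 3 and 7.33, 6.94 and 7.14 on NPA arrays 1 to 3. The NPA arrays were close together and the mock arrays wide apart, with mock 1 highest. The means were 4.60 ± 0.65 and 7.14 ± 0.19 (SD, n = 3 each), a difference of 2.54 or 5.81-fold. AT4G18630, a gene without a well described product, had log2 values of 4.36, 4.498 and 4.24 in mock and 6.29, 6.07 and 5.89 in NPA. Its groups were 1.40 apart at their nearest values, and its difference was 1.72 or 3.30-fold.

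**Figure D2:**
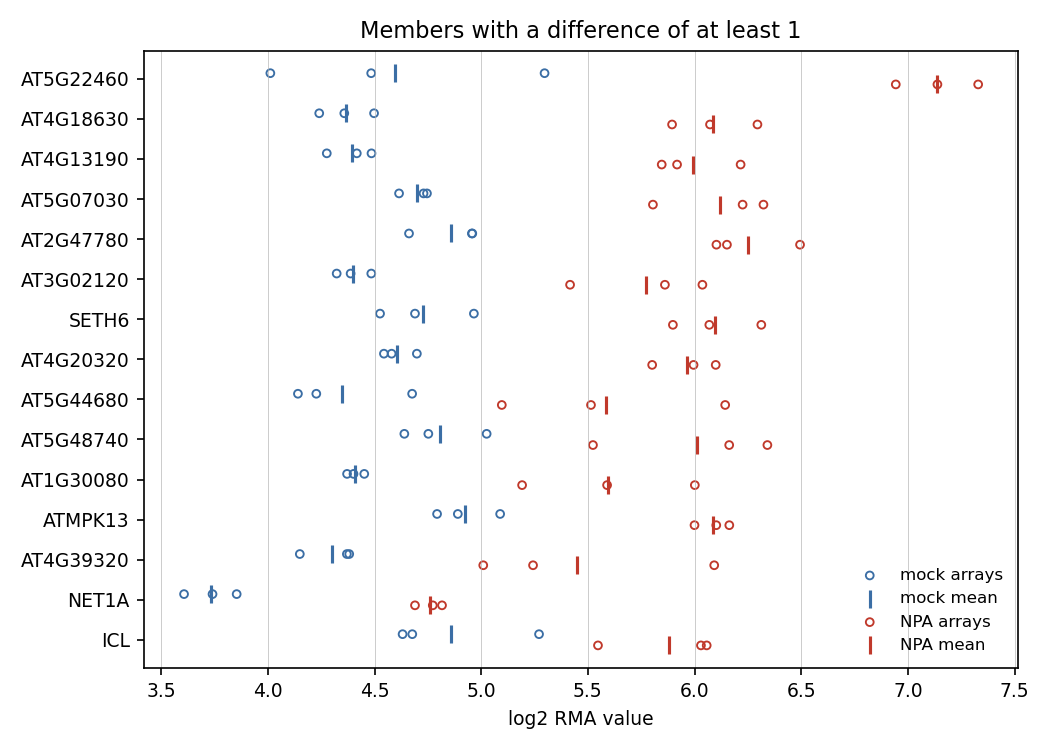
Log2 RMA values of the 15 members with a difference of at least 1, ordered by difference from AT5G22460 at 2.54 to ICL at 1.02. Open circles are single arrays (blue mock, red NPA, n = 3 each) and bars are group means; within each gene every red circle lies to the right of every blue one, as the rule requires.

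Of the 47 genes, 10 have roles in cell division or the cytoskeleton, as background knowledge has it. Their differences ran from 0.76 to 1.15, with a median of 0.83. AT4G39320, annotated as related to microtubule-associated proteins, led them. It was at 4.15, 4.37 and 4.38 in mock and at 5.24, 5.01 and 6.09 in NPA, on the log2 scale. NPA 3 stood above the other NPA arrays, and the difference of 1.15 was 0.83 without NPA 3. NET1A encodes a protein of the Networked family, which links actin filaments to membranes. It was the most even of these genes, at 3.74, 3.61 and 3.85 in mock and 4.77, 4.69 and 4.82 in NPA, a difference of 1.03. Its NPA values all lay under 5, so it stayed dim in both groups.

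The kinesins among the members, motor proteins that move along microtubules, were AT5G66310, AT5G06670 and AT2G21300. AT5G66310 was at 4.95, 5.11 and 4.74 in mock and 5.79, 5.75 and 5.99 in NPA, on the log2 scale. AT5G06670 was at 4.06, 4.45 and 4.15 in mock and 5.22, 4.998 and 4.92 in NPA. AT2G21300 was at 4.31, 4.26 and 4.37 in mock and 5.39, 4.93 and 4.99 in NPA. Their differences were 0.91, 0.82 and 0.79. AT5G66310 was highest on NPA 3, and both others were highest on NPA 1.

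AUR2 encodes an Aurora kinase, which acts on chromosomes and the spindle in mitosis. Its log2 values were 4.46, 4.91 and 4.83 in mock and 5.45, 5.40 and 5.63 in NPA, a difference of 0.76. TOPII encodes DNA topoisomerase II, which untangles DNA strands so that chromosomes can separate. It was at 4.81, 4.31 and 4.55 in mock and 5.44, 5.25 and 5.58 in NPA, a difference of 0.87. In both genes NPA 3 was the highest and NPA 2 the lowest of the NPA arrays.

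ACT11 encodes an actin of the class known mainly from reproductive organs, and it had the widest spread in NPA of all 47 genes. Its log2 values were 4.77, 4.73 and 4.39 in mock and 5.16, 5.02 and 6.19 in NPA. NPA 3 lay more than 1 above the other NPA arrays, and the NPA mean was 5.46 ± 0.64 (SD, n = 3). The difference of 0.83 was 0.47 without NPA 3, below the minimum of the rule. AT5G52280, related to myosin heavy chains, was at 4.41, 4.72 and 4.57 in mock and 5.60, 4.93 and 5.45 in NPA. AT4G30830, known here only by a myosin-like annotation, was at 3.99, 4.17 and 4.27 in mock and 5.34, 4.67 and 4.89 in NPA. NPA 2 was the lowest NPA array in both, and in AT5G52280 it came within 0.21 of the highest mock array.

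Kinases and a receptor-like protein made up 6 of the members, with differences from 0.72 to 1.60 and a median of 1.05. AT4G13190, a protein kinase gene, was at 4.49, 4.28 and 4.42 in mock and 6.22, 5.92 and 5.85 in NPA, on the log2 scale. The groups lay 1.36 apart at their nearest values, and the difference was 1.60 or 3.03-fold. ATMPK13 encodes a mitogen-activated protein kinase, a kinase that ends a phosphorylation cascade. It was at 4.89, 4.79 and 5.09 in mock and 6.16, 5.9999 and 6.10 in NPA, a difference of 1.16. Its NPA spread, at 6.09 ± 0.08 (SD, n = 3), was narrower than that of AT4G13190, at 5.99 ± 0.20.

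The receptor-like kinase genes with leucine-rich repeats were AT5G48740, AT5G41180 and AT5G67200. Proteins of this family sense peptides or other ligands at the cell surface, and the ligands of these members are not named here. AT5G48740 was at 4.64, 4.75 and 5.03 in mock and 6.16, 6.34 and 5.52 in NPA, on the log2 scale, with NPA 3 lowest. AT5G41180 was at 4.56, 4.86 and 5.04 in mock and 5.70, 5.54 and 5.67 in NPA. AT5G67200 was at 4.46, 4.70 and 4.77 in mock and 5.43, 5.49 and 5.18 in NPA. In all 3 genes mock 1 was the lowest mock array and mock 3 the highest, and their differences were 1.20, 0.81 and 0.72. AT5G23400, a gene of the leucine-rich repeat family, was at 4.09, 4.06 and 3.94 in mock and 4.64, 5.03 and 5.20 in NPA. Its groups lay 0.55 apart at their nearest values, with a difference of 0.93.

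**Figure D3:**
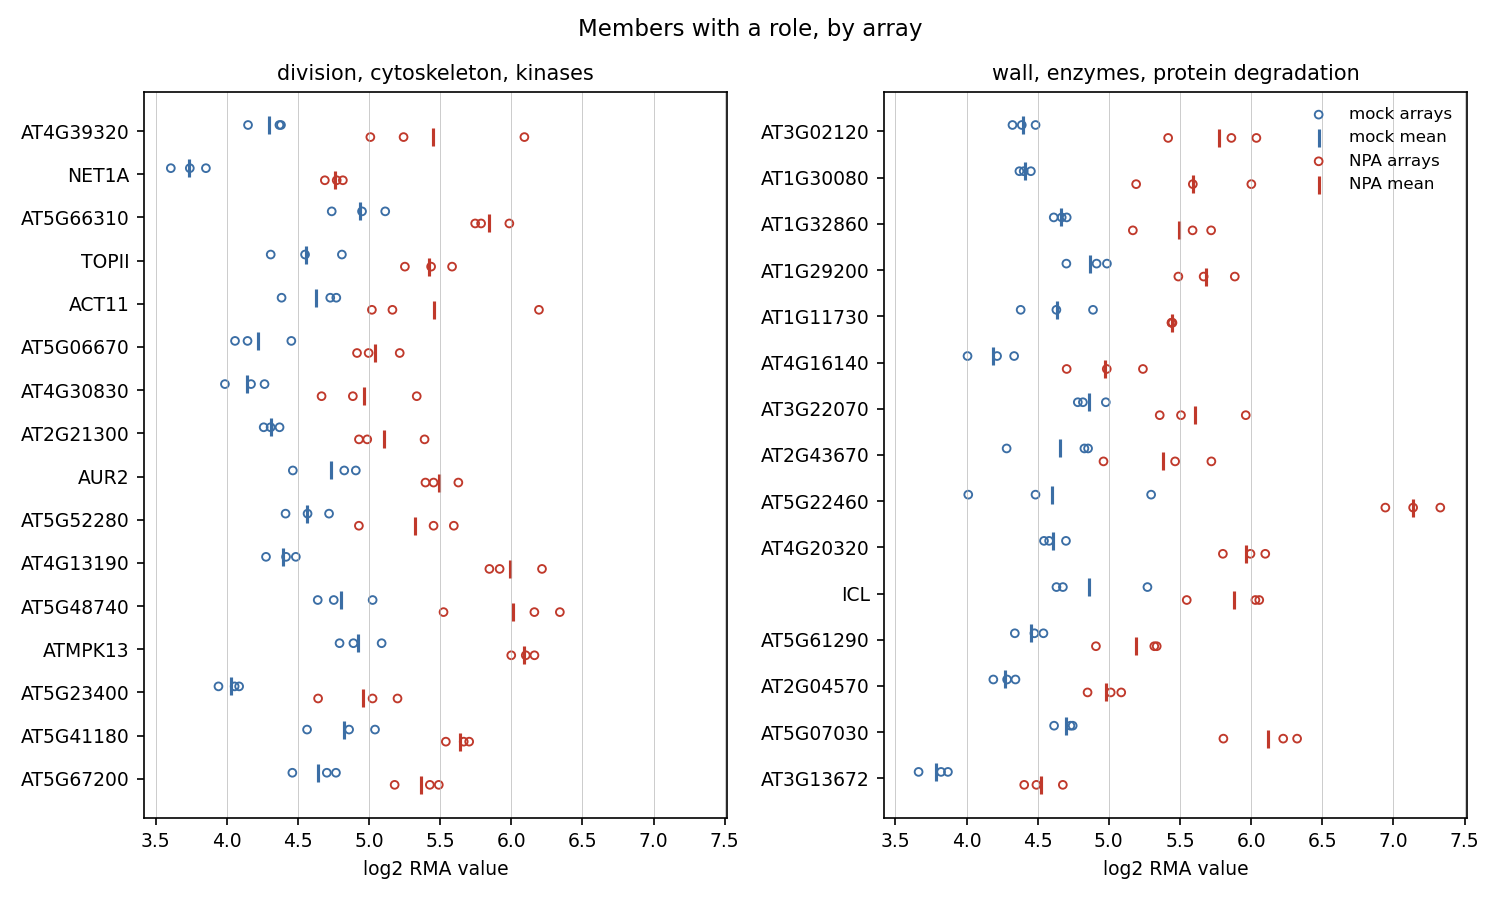
Log2 RMA values of the 31 members with a role, by array. The left panel holds 10 genes of division and cytoskeleton above 6 kinase and receptor genes, and the right panel 8 genes of the wall, 5 of enzymes and 2 of protein degradation, each set ordered by difference; open circles are arrays (blue mock, red NPA), bars are group means, and AT4G39320 and ACT11 each have 1 NPA array far above the other NPA arrays.

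By family name, 8 of the members were grouped as wall proteins and enzymes that act on sugars. A place of their proteins in the wall was not measured. Their differences ran from 0.73 to 1.37, with a median of 0.81. AT3G02120, annotated among the hydroxyproline-rich glycoproteins, was at 4.48, 4.32 and 4.39 in mock and 5.42, 5.86 and 6.04 in NPA, on the log2 scale. Its difference was 1.37 or 2.59-fold. AT1G30080 and AT1G32860 encode members of glycosyl hydrolase family 17, whose known members cleave beta-1,3-glucans such as callose. AT1G30080 was at 4.40, 4.45 and 4.37 in mock and 5.19, 5.59 and 6.001 in NPA. AT1G32860 was at 4.61, 4.70 and 4.67 in mock and 5.59, 5.17 and 5.72 in NPA. In both the mock arrays were within 0.10 of each other and the NPA arrays much wider apart, and the differences were 1.19 and 0.83. AT2G43670, with an X8 domain that binds carbohydrate, was at 4.85, 4.83 and 4.28 in mock and 5.47, 4.96 and 5.72 in NPA. Here NPA 2 lay only 0.11 above mock 1, and the difference was 0.73.

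AT1G11730, of a galactosyltransferase family, had the narrowest spread in NPA of all 47 genes, with an SD of 0.0036 (n = 3). Its log2 values were 4.38, 4.63 and 4.89 in mock and 5.45, 5.44 and 5.44 in NPA, a difference of 0.81. AT1G29200, of the O-fucosyltransferase family, was at 4.99, 4.70 and 4.91 in mock and 5.49, 5.89 and 5.67 in NPA, also a difference of 0.81. The proline-rich protein genes AT4G16140 and AT3G22070 both had their highest value on NPA 2 and their lowest NPA value on NPA 3. AT4G16140 had means of 4.18 ± 0.17 and 4.98 ± 0.27 (SD, n = 3 each), and AT3G22070 had means of 4.86 ± 0.10 and 5.61 ± 0.32. Their differences were 0.79 and 0.75.

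Among genes of enzymes outside the wall group, AT4G20320 encodes a CTP synthase, which makes a building block of RNA, DNA and membrane lipids. It was at 4.54, 4.70 and 4.58 in mock and 5.80, 6.10 and 5.995 in NPA, on the log2 scale, a difference of 1.36. ICL encodes isocitrate lyase, an enzyme of the glyoxylate cycle known from seedlings that live on stored oil. It was at 4.63, 5.27 and 4.68 in mock and 6.03, 5.55 and 6.06 in NPA. Mock 2 and NPA 2 came within 0.28 of each other, and the difference was 1.02. AT5G61290, of the flavin-binding monooxygenases, and AT2G04570, of the GDSL lipases, were near the minimum of the rule at differences of 0.74 and 0.71.

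Among genes of protein turnover, AT5G07030 encodes an aspartyl protease and was at 4.61, 4.75 and 4.73 in mock and 5.81, 6.32 and 6.23 in NPA, on the log2 scale. The mock arrays were tight, and the difference was 1.42 or 2.68-fold. AT3G13672, also called SINA2, belongs to a family related to ubiquitin ligases of the SINA type. It was dim in both groups, at 3.82, 3.66 and 3.87 in mock and 4.49, 4.41 and 4.68 in NPA, a difference of 0.74.

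The other 16 members had differences from 0.71 to 1.72. AT2G47780 belongs to the rubber elongation factor family, whose known plant members sit on lipid droplets. It was at 4.96, 4.96 and 4.66 in mock and 6.10, 6.15 and 6.49 in NPA, on the log2 scale, a difference of 1.39. SETH6 encodes a protein of the NPH3 family and was at 4.97, 4.53 and 4.69 in mock and 6.07, 5.90 and 6.31 in NPA, a difference of 1.37. These genes lie near each other in the gene order of the TAIR10.1 assembly, with 8 protein-coding genes between them, and no 2 of the 47 were direct neighbours. AT5G44680, of the DNA glycosylase superfamily, was at 4.68, 4.14 and 4.23 in mock and 6.14, 5.51 and 5.10 in NPA. Its NPA spread was wide, at 5.58 ± 0.53 (SD, n = 3), and the difference was 1.24. AT4G22212, a defensin-like gene, was at 4.33, 4.93 and 5.32 in mock and 5.89, 5.97 and 5.63 in NPA, with a wide spread in mock instead and a difference of 0.97. AT2G46780, a gene of an RNA-binding protein family, had a difference of 0.92.

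The remaining genes of this kind have no role given here. Their differences were 0.83 in AT5G45540, 0.82 in AT2G36885, 0.79 in AT1G06420, 0.77 in AT1G13650, AT4G21740 and AT3G57780, and 0.75 in AT3G20260. They were 0.74 in AT5G62550, 0.72 in AT4G02800 and 0.71 in AT5G59020. AT4G21740 had the smallest gap of all 47 genes between the groups, at 0.04, since NPA 2 was at 4.92 and mock 2 at 4.88. Without NPA 1, where it was highest, its difference was 0.50. The difference of AT1G06420 was 0.52 without NPA 1, its highest array too.

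The 47 genes did not share 1 order of the NPA arrays. NPA 1 was the highest in 14, NPA 2 in 12 and NPA 3 in 21 of them. Over the 5614 dim genes NPA 3 was the highest of the NPA arrays in 56.5%, NPA 2 in 26.3% and NPA 1 in 17.2%. The median of the 47 values was 4.54, 4.53 and 4.45 on mock arrays 1 to 3 and 5.47, 5.44 and 5.58 on NPA arrays 1 to 3, so each NPA median lay above each mock median, as the rule leads to. In the 10 genes of division and cytoskeleton NPA 2 was the highest array in 0, NPA 3 in 6 and NPA 1 in 4. Their median deviation from the NPA mean was -0.17 on NPA 2 and 0.13 on NPA 3. Among the 6 kinase and receptor genes NPA 3 was the highest in only 1 gene. These are counts of few genes over shared arrays, and they were not tested.

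**Figure D4:**
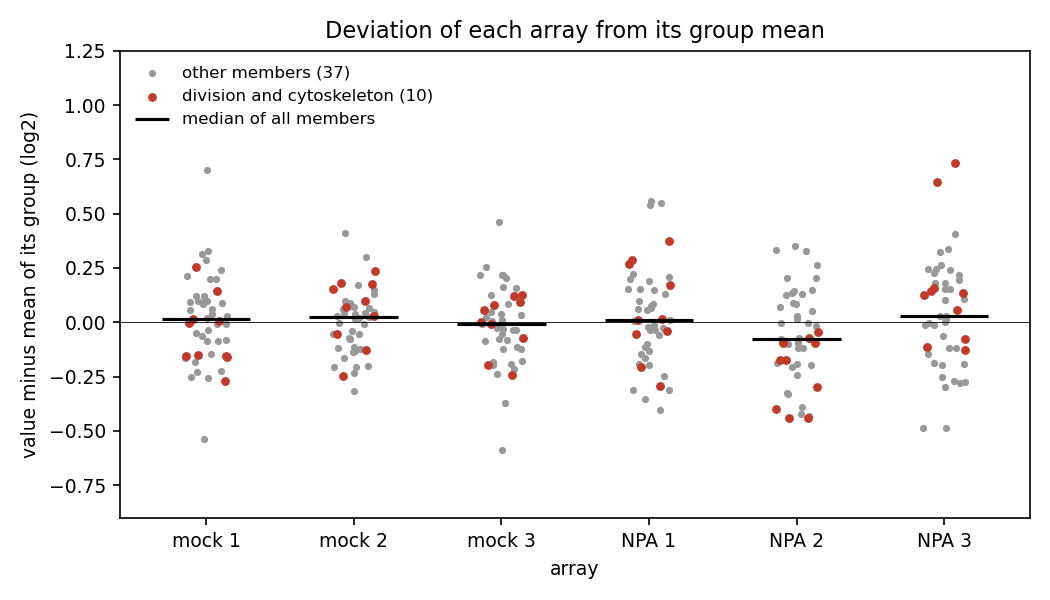
Value of each member on each array minus the mean of that array's group (log2), with red points for the 10 genes of division and cytoskeleton, grey points for the other 37 and a black line for the median of all 47. All red points on NPA 2 lie below 0, and the highest red points on NPA 3 are AT4G39320 and ACT11.

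The spread between arrays of a group had a median SD of 0.17 in mock and 0.21 in NPA over the 47 genes, and of 0.10 and 0.13 over the 5614 dim genes. The SD was larger in NPA than in mock in 63.8% of the members and in 60.8% of the dim genes. On the array all 47 had 1 probe set each, none of a type shared between similar transcripts, and all are protein-coding in the gene table. The length of the gene, which the rule did not use, had a median of 2.44 kb in the members, 1.79 kb in all dim genes and 2.10 kb in all measured genes. The gene table gives 40 of the 47 only their locus name as a symbol, as it does 88.3% of all measured genes.

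Near the limits of the rule, the highest mock means among the members were 4.93 in AT5G66310, 4.93 in AT3G57780 and 4.92 in ATMPK13. Genes that met the other terms with mock means just above 5 were AT3G20460 at 5.03, AT2G27740 at 5.03 and KICP-02 at 5.05. The smallest differences among the members, at 0.71 to 0.72, were those of AT2G04570, AT5G59020 and AT4G02800. Just below the minimum were AT5G37790 at 0.70, AT4G18425 at 0.69 and AT1G68470 at 0.68. With 1 array left out at a time 22 of the 47 met all terms in each of the 6 cases, and the 15 genes with a difference of at least 1 were among these.

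The 47 genes held none of the genes matched by symbol to the auxin response, CLE peptide, kinesin, xylem and phloem lists. The kinesins above, which carry only locus names, were missed by such a match. Nothing is read from that absence, since few matched genes had a mock mean under 5. These were 0 of 3 xylem, 0 of 2 phloem and 1 of 2 kinesin genes. They were also 3 of 7 Aux/IAA, 2 of 6 CLE, 2 of 2 LBD and 2 of 3 SAUR genes. Of 7 Aux/IAA genes, repressors of auxin response, limma called 1 higher and 0 lower, with a median difference of 0.12. Of 6 CLE genes, which encode signal peptides, 1 was higher and 0 lower, with a median of 0.00. The 3 xylem genes matched were GUT2, IRX15 and IRX15-L, and no other gene of that list was matched. All 3 were called higher, with a median of 1.33. Of 2 phloem genes, OPS and SWEET11, 1 was called higher and 0 lower, with a median of 0.10, and only 1 had a difference above 0. Neither of the 2 kinesin genes matched, KINESIN-12B and KINESIN-13A, was called, at a median of 0.22. Nor was any of 2 LBD and 3 SAUR auxin-response genes, at medians of 0.05 and -0.05. The lists were matched by symbol or synonym. They missed genes that go by other names, carry only a locus name or have no probe set of their own named. For ARF, WOX, KNOX and cyclin genes 0 symbols matched, which does not show that these genes were not measured. By gene, 2.31% of the 13355 were called higher and 0.232% lower.

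Markers of the tissues in a stem were matched in the same way and only in part. Of the xylem markers 0 were matched, so no level is given for xylem. The summed level of 9 nuclear photosynthesis genes of the green cortex, on the log2 scale, ran from 14.24 to 14.48 in mock and 14.37 to 14.59 in NPA, so the groups overlapped. The 2 genes matched to the epidermis list were CR4 and FDH, and whether FDH here is the epidermal gene of that name was not checked. Only 1 of the 2 had a mock mean under 5, so their sum rests almost wholly on the other. It ran from 12.24 to 12.52 in mock and 11.96 to 12.08 in NPA. The 1 starch sheath gene ran from 6.74 to 7.05 in mock and 6.29 to 6.39 in NPA. Both of these levels lay lower in NPA without overlap, though limma called none of the 3 genes. The share of all genes lower in NPA without overlap is not given here, so nothing is read from this. The part of these markers in the values of the 47 genes was not tested. The 3 stomatal genes summed to 5.64 to 5.82 in mock and 5.62 to 5.75 in NPA, the 2 phloem genes to 7.61 to 7.86 and 7.48 to 7.68, and the 1 flower gene ran from 3.90 to 4.03 and 3.96 to 4.11.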

How the data were processed

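The authors' deposited table holds log2 expression values for 22810 probe sets on 6 arrays; RMA and limma are named, without versions, per the submitters' processing notes. RMA corrects the background, brings the arrays to nearly equal distributions and sums up the probes, and it gives no call of detection. No source used here gives the probe set definitions or a genome build. The values were used as deposited, and the 64 control probe sets were left out, which left 22746. Differences are NPA minus mock. A linear model was fitted to all probe sets (lmFit, then eBayes; limma 3.58.1 under R 4.3.3). Its p-values were adjusted by the Benjamini-Hochberg method over the whole table, and the fit was tested on simulated data. The rest used Python 3.11.15, pandas 2.3.3 and matplotlib 3.10.9. Each SD is over 3 arrays.

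Names came from the platform's gene table, and symbols were updated with RefSeq's gene table for TAIR10.1. Exactly 1 gene was listed for 13513 probe sets, which stood for 13355 genes, several genes for 503 and none for 8730. No coordinates are given.

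The members, gene lists and terms were chosen with earlier results of these data known. The role groups were made after the values were seen, from background knowledge of the gene families, which the tables do not describe for genes with a locus name only. The genes named were set by a rule of the 15 largest differences, 3 genes on each side of each limit, up to 4 of each role and those with the widest and narrowest NPA spread; the others are named to account for every member. The alternatives were other limits, other choices of probe set, 2 rescalings of the arrays, a replicate block, a trended and robust eBayes, brighter probe sets only and each array left out. Promoter motifs and counts of families by description words were planned and not analysed here.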

Additional observations from a re-analysis of the deposited data

How the results depend on the processing

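The number of genes that met the terms moved most with the terms themselves and with centring of the arrays. It was 19 with a mock mean under 4.5, 15 with a difference of at least 1, 97 with a difference of at least 0.5, and 29 with arrays centred on their medians, which lowered every difference by 0.11. It was 70 with a mock mean under 5.5, 40 after quantile normalization once more and 47 under each other choice of probe set. With single arrays left out it was 42 to 56, with 37 to 43 of the 47 kept. Without single arrays 16 to 25 of the 47 had an adjusted p under 0.05, against 31 with all arrays. It was 16 without mock 2, 16 without mock 3, 17 without NPA 1 and 17 without NPA 2. Leaving out mock 1 and NPA 3 together, added after the data were examined because the second principal component set them apart, gave 19, and 365 of all probe sets called higher against 628. Those were 391 with centred arrays, and 290 to 405 without single arrays; fits with fewer arrays lose calls from that alone. With the replicate block 22 of the 47 and 398 of all probe sets were called. Same-numbered arrays of the groups had correlations of deviations of -0.26, 0.05 and 0.04, so the numbers were not taken to pair the samples. The member count among brighter probe sets could not be made, since 0 of the 47 had a mean above the median probe set, and the promoter alternatives were not run. Of 376 differences of single genes under alternatives, 0 changed sign and 4 moved by more than the spread between arrays. Leaving out 1 array cannot change a sign where the groups do not overlap. Centring lowered each difference by less than the minimum of the rule. The 4 were all with centred arrays, and nothing is read from these counts, since the rule chose the genes. Values this dim limit how exact a fold can be.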

Other observations

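Probe sets without a listed gene held the same kind of pattern. Of 2455 such probe sets with a mock mean under 5, 32 met the 3 terms, with a median log2 difference of 0.92. Beside them, 49 of the 5614 dim genes, or 0.873%, met these terms before any were left out by name. The 2 shares were not compared by a test. The probe set 253617_at was at 4.70, 4.54 and 4.89 on mock arrays 1 to 3 and 7.23, 7.02 and 7.61 on NPA arrays 1 to 3, a difference of 2.57. The probe set 251131_at was at 4.38, 4.75 and 4.94 in mock and 6.90, 7.07 and 6.84 in NPA, a difference of 2.25. Both were chosen after their values were seen, as the 2 largest of the 32, and the values of their groups did not overlap, as the terms require.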
